A study of Mus musculus with 12 samples.

Results

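The genes described here are the 126 expressed zinc finger protein genes of mouse bone marrow-derived macrophages (BMDM), out of 43280 genes in the deposited table. They are the rows named Zfp and a digit whose mean over the 12 libraries was at least 5 CPM (reads of a gene scaled to all reads counted on genes). Of 373 rows with such a name, 244 lay under this level, and Zfp36, Zfp36l1 and Zfp36l2, which bind AU-rich mRNAs with another kind of finger, were left out by name. The measured level chose the members, so their levels are a description. Just inside the limit were Zfp952, Zfp518a and Zfp111 with means of 5.28, 5.21 and 5.09 CPM, and just outside it Zfp28, Zfp266 and Zfp597 with 4.91, 4.86 and 4.85 CPM. A gene could pass the limit through a high level at a single time point. Without LPS 119 members averaged at least 5 CPM, after 8 h 99 and after 12 h 98, and 87 did so at all 3 times. The 7 members under 5 CPM without LPS were Zfp287, Zfp446, Zfp558, Zfp654, Zfp874a, Zfp945 and Zfp952, which passed through their LPS libraries. After 8 h 27 members were under it, and after 12 h 28. The direction in which such members changed is therefore partly set by the choice.

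The cells came from C57BL6 mice, either wild type (wt) or Treml4-/-, in which the gene of the receptor Treml4 is knocked out, and were grown from total bone marrow with M-CSF. They were left unstimulated with PBS as vehicle (M0), or received lipopolysaccharide (LPS, from the outer membrane of Gram-negative bacteria) at 100 ng/mL for 8 h (M1-8 h) or 12 h (M1-12 h). Each of the 6 conditions had 2 biological replicates, with no statement of which animals or cultures they shared, so the p-values measure the spread between these libraries. The comparisons asked how the zinc finger genes moved with LPS and whether wt and Treml4-/- cells differed in them.

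Most Zfp genes encode C2H2 zinc finger proteins, in which each finger folds around a zinc ion held by a pair of cysteines and a pair of histidines, and a row of fingers reads DNA bases. A large group carries a KRAB domain, which recruits Trim28 (KAP1) and through it the histone methyltransferase Setdb1, heterochromatin proteins and histone deacetylases, and is best known for silencing retroelements. Other members use their fingers on RNA or on proteins and work in ribosome quality control, ubiquitination or chromatin complexes. In macrophages LPS acts through Toll-like receptor 4, and changes the level of a large share of genes within hours.

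Libraries held 48008751 to 58500792 reads counted on genes, so that 1 read was worth 0.0171 to 0.0208 CPM. Treml4 itself was at 8.35 and 6.57 CPM before LPS, 3.997 and 3.95 after 8 h and 9.82 and 13.2 after 12 h in wt, and at 0 in the 6 Treml4-/- libraries. Macrophage markers (6 of the 7 listed were in the table) summed to 8217 to 25776 CPM in every library, and were lower after LPS than at M0. Nos2, Tnf, Il1b and Il6 together went from 40.3 to 57.0 CPM before LPS to 17686 to 20501 after 8 h and 15945 to 17625 after 12 h. T cell, B cell and erythroid markers stayed under 0.309 CPM in sum, while neutrophil markers summed to 18.4 to 63.4 CPM and dendritic cell markers to 0.551 to 7.59 CPM, and their part in the results was not tested. LPS moved the median of all 12086 tested genes by -0.72 (log2) at 8 h and by -0.76 at 12 h when libraries were scaled by their size. Scaled by the median of ratios, which assumes that most genes keep their level, the shift was -0.04 at both times. Directions under this second scaling are therefore given beside the first. In bulk RNA, fewer cells expressing a gene and less RNA per cell cannot be told apart.

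The promoters of 3 members are shown because these genes carry the largest rise (Zfp800), the largest rise of a promoter-binding factor (Zfp281) and the largest fall among the members that act on ribosomes (Zfp598). The letters are the 250 bases before the annotated start, 5′ to 3′ along the gene's strand, from RefSeq on GRCm38.p6, and capitals mark GC boxes (GGGCGGG on either strand). Zfp800 has a pair of annotated starts on the minus strand, Zfp281 and Zfp598 each have 1 on the plus strand.
Zfp800, start 1, chr6:28261925-28262174, minus strand: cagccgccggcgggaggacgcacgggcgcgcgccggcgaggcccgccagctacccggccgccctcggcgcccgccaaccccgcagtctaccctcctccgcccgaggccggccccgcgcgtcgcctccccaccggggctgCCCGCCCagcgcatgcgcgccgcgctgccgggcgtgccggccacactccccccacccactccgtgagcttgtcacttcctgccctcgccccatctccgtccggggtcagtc
Zfp800, start 2, chr6:28398006-28398255, minus strand: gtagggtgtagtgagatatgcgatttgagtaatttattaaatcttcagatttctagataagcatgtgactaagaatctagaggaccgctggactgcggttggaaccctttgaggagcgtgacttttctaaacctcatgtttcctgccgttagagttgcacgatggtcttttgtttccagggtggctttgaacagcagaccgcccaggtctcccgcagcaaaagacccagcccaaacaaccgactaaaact
Zfp281, chr1:136624651-136624900, plus strand: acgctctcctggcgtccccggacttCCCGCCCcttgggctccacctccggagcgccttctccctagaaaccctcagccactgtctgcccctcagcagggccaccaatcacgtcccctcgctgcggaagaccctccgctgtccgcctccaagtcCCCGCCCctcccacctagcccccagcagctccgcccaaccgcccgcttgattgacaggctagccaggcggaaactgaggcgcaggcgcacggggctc
Zfp598, chr17:24669437-24669686, plus strand: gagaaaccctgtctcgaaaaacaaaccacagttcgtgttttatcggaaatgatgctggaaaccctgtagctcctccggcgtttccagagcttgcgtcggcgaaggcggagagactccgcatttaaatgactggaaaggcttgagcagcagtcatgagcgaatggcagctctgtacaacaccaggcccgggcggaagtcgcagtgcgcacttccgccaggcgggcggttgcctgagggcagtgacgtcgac

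The first Zfp800 promoter was 80.0% G and C with 1 GC box, whereas the second was 46.4% and held none. The Zfp281 promoter was 69.6% with 2 GC boxes, and that of Zfp598 57.2% with none. Promoters of 300 bases, 250 before and 50 after the start, were at hand for 98 of the 126 members. On both strands, 4.1% of these members had a match to the NF-kB consensus against 6.4% of 8702 tested genes with a promoter. For the interferon-stimulated response element the shares were 0 and 2.6%, for AP-1 (TGANTCA) 6.1% and 6.3%, for ETS (CCGGAAG) 24.5% and 21.4%, and for the GC box 49 of 98 and 52.2%. Of 13 genes with a promoter among those that rose at 8 h, 1 had an NF-kB match, none an AP-1 match, 2 an ETS match and 6 a GC box. Of 26 with a promoter among those that fell at 8 h under both scalings, none had an NF-kB match, 2 an AP-1 match, 3 an ETS match and 14 a GC box. In the printed promoters no match overlapped another. A match is only a run of letters, and its absence says only that the letters are not in this window.

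All 126 members were found in the GENCODE M21 annotation of GRCm38, 1 of them (Zfp191) under another symbol. A C2H2 finger pattern was present in 123 of their proteins (97.6%, against 4.43% of 21199 protein-coding genes), with a median of 9 fingers and a maximum of 40 in Zfp142. Zfp330, Zfp703 and Zfp839 had no match. A KRAB pattern, which asked for 7 of 9 conserved residues around a tryptophan, matched 34 members (27.0%, against 1.39% of protein-coding genes). It also matched 20 protein-coding genes without a C2H2 match. A match, or its lack, does not settle whether the domain is present. Chromosome 7 held 30 members, and 40 had another member within 200 kb. The exons of 46 members overlapped those of another gene, in 8 of them over more than 20% of their bases, and 8 shared more than 5% of their 126-base windows with another gene. Values of Zfp524 (51.6% overlap with Fiz1 and Gm44973, 42.4% shared), Zfp414 (30.4% overlap with Gm20507, 19.7% shared), Zfp593 (77.9% overlap) and Zfp106 (26.1% overlap) are uncertain for this reason, since whether counting used strand is not given in the sources used here. The same holds for Zfp90 (79.5% overlap with Gm26786), Zfp213 (56.6% overlap), Zfp865 (28.4% overlap, 16.5% shared) and Zfp335 (28.3% overlap).

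Per kilobase of exon and over all 12 libraries, the most abundant members were Zfp710 (29.9 CPM per kb), Zfp385a (26.3), Zfp207 (21.3), Zfp513 (18.1), Zfp263 (15.7) and Zfp800 (14.8). The least abundant were Zfp111 (0.50), Zfp644 (0.64) and Zfp386 (0.64). Zfp710, a C2H2 factor at chr7:80024814-80094173, was at 281 and 298 before LPS, 191 and 185 after 8 h and 157 and 166 after 12 h in wt, and 267 and 271 before LPS, 177 and 174 after 8 h and 154 and 163 after 12 h in Treml4-/- (CPM). It was lower in every LPS library than in every M0 library. Its log2 difference from M0 was -0.62 ± 0.05 (SE), adjusted p = 3.41e-07 at 8 h and -0.80 ± 0.05 (SE), adjusted p = 3.13e-08 at 12 h, but under median of ratios it was 0.18 and 0.05 and not called, so its direction depended on the scaling. Zfp385a, an RNA-binding protein and partner of p53, was at 105 and 123 before LPS, 52.5 and 47.3 after 8 h and 38.1 and 33.01 after 12 h in wt, and 123 and 109 before LPS, 44.02 and 44.02 after 8 h and 36.2 and 38.3 after 12 h in Treml4-/- (CPM). It fell under both scalings, by 1.28 at 8 h and 1.63 at 12 h (log2). Summed over the 126 members, the level averaged 3614 CPM before LPS, 2411 after 8 h and 2236 after 12 h at library size. Median of ratios divides the M0 libraries by 1.38 to 1.52 and the LPS libraries by 0.776 to 0.888. The direction of this sum therefore depended on the scaling, and it was not tested.

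**Figure D1:**
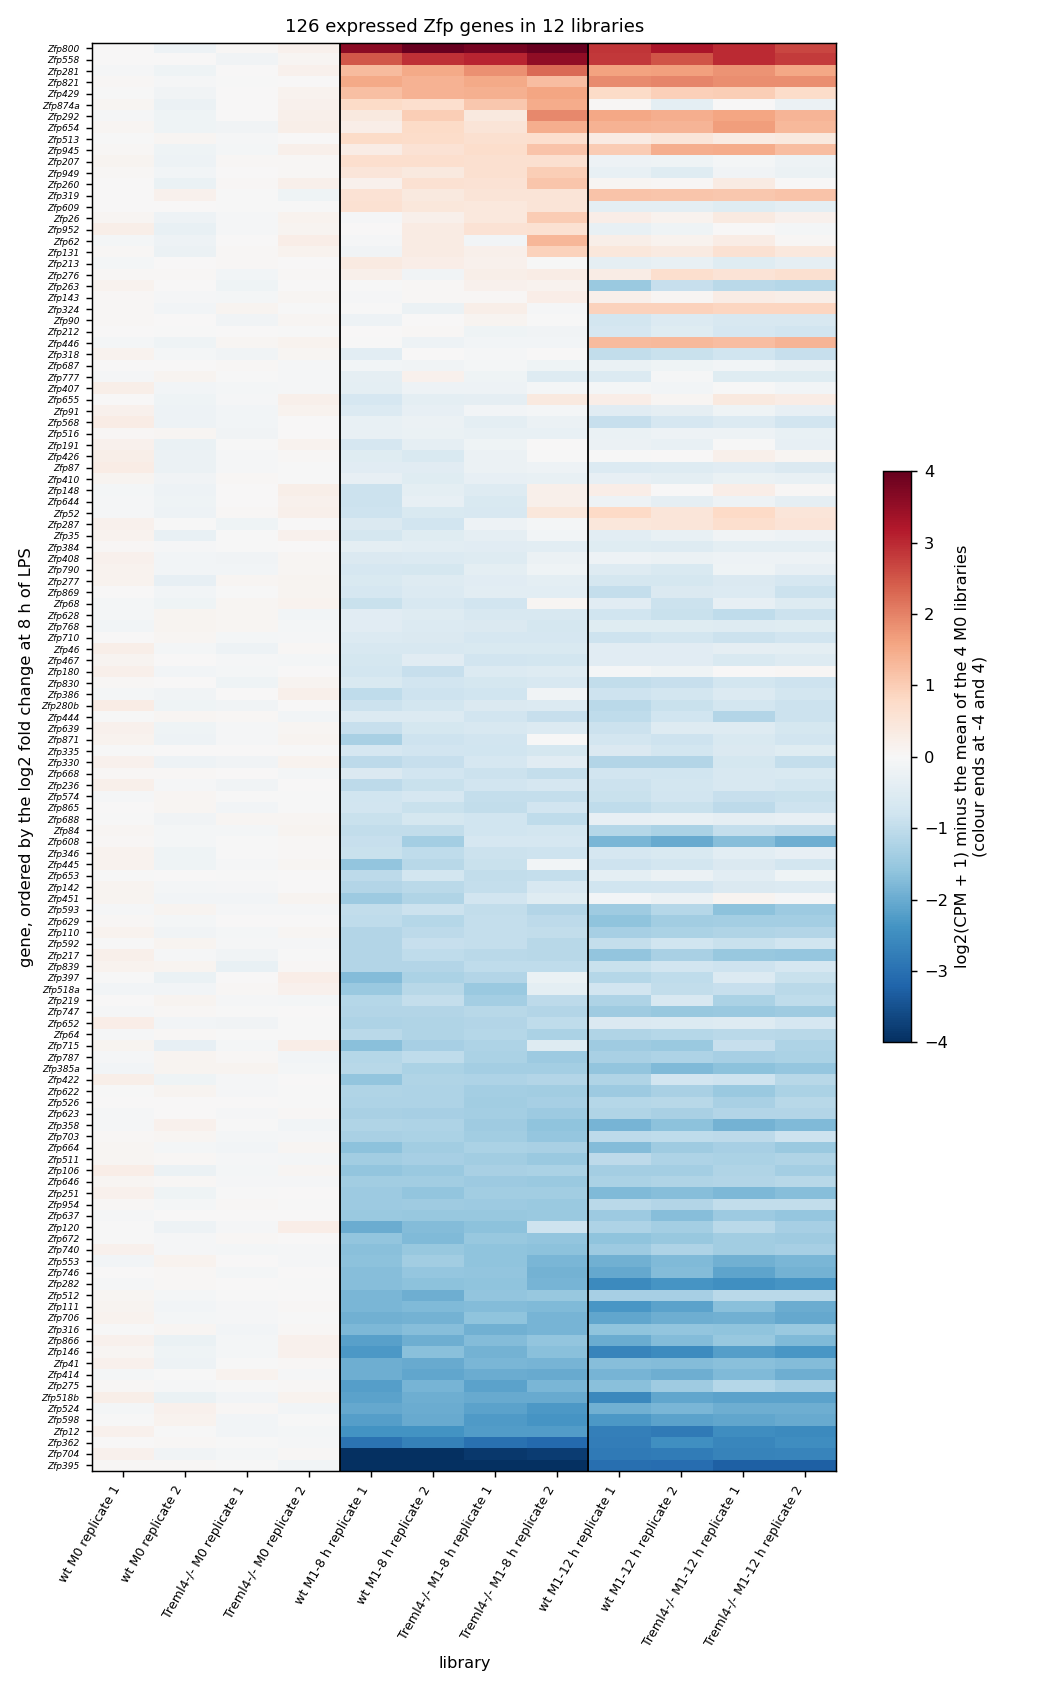
Heat map of the 126 expressed Zfp genes (rows, ordered by their change at 8 h) in the 12 libraries (columns, grouped by time and genotype), coloured by log2(CPM + 1) minus the gene's mean over the 4 M0 libraries, with colours ending at -4 and 4. The blue block of genes below their M0 level, down to Zfp395, is longer than the red block led by Zfp800, and Treml4-/- M1-8 h replicate 2 is paler than its neighbours in several rows.

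At M1-8 h, 15 members were higher (11.9%) and 80 lower (63.5%) than at M0, with an adjusted p under 0.05 and a fold of at least 1.4 in limma's test over both genotypes. Over all 12086 tested genes, 17.1% were higher and 59.8% lower, and over the 8906 with a mean of at least 5 CPM 18.5% and 59.1%. The members' median change of -0.75 (log2) lay beside -0.72 for all tested genes. With median of ratios scaling 33 members were higher and 36 lower (31.1% and 31.4% of all tested genes), and the median was -0.01. Both scalings gave the same 15 higher and 36 lower members, 44 were called lower at library size alone, 18 higher at median of ratios alone, and 13 under neither. All 4 M1-8 h libraries lay above all 4 M0 libraries in 14 members and below them in 81, against 19.2% and 64.1% of all tested genes. The largest changes against M0 named below were taken from called members without such overlap. Their lack of overlap is thus part of the choice and no further support. Among the 15 higher members are Zfp558, Zfp654, Zfp874a and Zfp945, which passed the limit of 5 CPM only through LPS libraries.

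Zfp800, a C2H2 protein at chr6:28239927-28398005 on the minus strand, showed the largest rise. It was at 7.79 and 6.55 before LPS, 105 and 142 after 8 h and 63.2 and 84.2 after 12 h in wt, and 8.03 and 8.83 before LPS, 122 and 187 after 8 h and 68.5 and 54.4 after 12 h in Treml4-/- (CPM). Every LPS library was above every M0 library, and the M1-8 h libraries were above the M1-12 h libraries. On the log2(CPM + 1) scale it rose by 3.96 ± 0.15 (SE), adjusted p = 3.62e-10 at 8 h and by 2.95 ± 0.15 (SE), adjusted p = 3.94e-09 at 12 h. Zfp558, a KRAB protein at chr9:18455575-18478268, was close to absent at M0 and stood at 0.328 and 0.334 before LPS, 6.34 and 8.99 after 8 h and 8.23 and 6.49 after 12 h in wt, and 0.204 and 0.393 before LPS, 9.88 and 14.3 after 8 h and 9.39 and 8.16 after 12 h in Treml4-/- (CPM). No LPS library overlapped the M0 libraries, and limma's test gave a rise of 3.001 ± 0.14 (SE), adjusted p = 1.53e-09 at 8 h, followed by 2.78 at 12 h. Zfp558 met the limit of 5 CPM only through its LPS libraries, so the direction of this change is tied to the choice of members.

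Zfp281, which binds GC-rich promoters and is known from pluripotent cells, lies at chr1:136624901-136630053. Its level was 12.1 and 10.996 before LPS, 31.5 and 37.4 after 8 h and 40.2 and 41.05 after 12 h in wt, and 12.6 and 14.2 before LPS, 46.7 and 63.6 after 8 h and 45.6 and 38.6 after 12 h in Treml4-/- (CPM). All LPS libraries exceeded all M0 libraries, with a change of 1.72 ± 0.11 (SE), adjusted p = 1.89e-08 at 8 h and 1.66 at 12 h. Zfp821 rose by 1.41 at 8 h and 1.89 at 12 h, and Zfp292, a large C2H2 protein, by 0.92 and 1.49 (log2). The rise of Zfp292 at 8 h was uneven between libraries. It was at 12.5 to 16.3 CPM at M0, and after 8 h at 18.8 and 28.8 in wt and 18.9 and 56.3 in Treml4-/-. The neighbours Zfp429 and Zfp874a on chromosome 13 rose by 1.404 and 1.01 at 8 h. Zfp654 rose by 0.75 at 8 h and 1.42 at 12 h, from 4.47 and 3.52 CPM in wt and 3.67 and 5.01 in Treml4-/- cells at M0. Zfp513, Zfp945, Zfp207, Zfp949, Zfp260, Zfp319 and Zfp609 made up the rest of the 15, with changes of 0.49 to 0.70. Under median of ratios all 15 were higher as well.

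The largest falls at 8 h were in Zfp395 and Zfp704, which belong to a small family of related factors and have a single C2H2 match each. Zfp395, at chr14:65358389-65398930, was at 55.7 and 55.5 before LPS, 1.07 and 1.11 after 8 h and 5.74 and 5.62 after 12 h in wt, and 53.2 and 49.8 before LPS, 1.03 and 0.7501 after 8 h and 4.73 and 4.65 after 12 h in Treml4-/- (CPM). It fell by 4.78 ± 0.08 (SE), adjusted p = 4.67e-13 at 8 h and by 3.15 ± 0.08 (SE), adjusted p = 1.20e-11 at 12 h on the log2 scale, and at 12 h it lay between M0 and 8 h in every library. Zfp704, at chr3:9427020-9610085, was at 32.8 and 25.7 before LPS, 0.686 and 0.780 after 8 h and 3.15 and 3.29 after 12 h in wt, and 26.8 and 29.8 before LPS, 1.03 and 1.15 after 8 h and 3.62 and 3.78 after 12 h in Treml4-/- (CPM). The fall was 3.96 ± 0.09 (SE), adjusted p = 6.85e-12 at 8 h and 2.73 ± 0.09 (SE), adjusted p = 1.30e-10 at 12 h, and again no M1-12 h library overlapped an M0 or M1-8 h library. Zfp362 followed with -2.93 at 8 h and -2.58 at 12 h.

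Zfp598, a ubiquitin ligase that marks collided ribosomes, lies at chr17:24669687-24682016 and was at 47.1 and 52.1 before LPS, 9.59 and 11.05 after 8 h and 8.94 and 10.1 after 12 h in wt, and 43.96 and 47.6 before LPS, 9.06 and 8.47 after 8 h and 10.5 and 10.9 after 12 h in Treml4-/- (CPM). It was lower in all 8 LPS libraries than in all 4 M0 libraries, by 2.21 ± 0.08 (SE), adjusted p = 2.02e-10 at 8 h and 2.13 at 12 h (log2). Zfp12, a KRAB protein, was at 19.5 and 17.03 before LPS, 2.42 and 2.45 after 8 h and 1.69 and 1.57 after 12 h in wt, and 15.8 and 16.2 before LPS, 2.85 and 2.82 after 8 h and 2.23 and 2.08 after 12 h in Treml4-/- (CPM). Its fall was 2.32 ± 0.08 (SE), adjusted p = 1.13e-10 at 8 h and 2.65 ± 0.08 (SE), adjusted p = 4.14e-11 at 12 h. Zfp518b fell by 2.04 and 2.23, Zfp275 by 2.01 and 1.39, and Zfp524, whose reads are uncertain, by 2.12 and 1.92 at 8 h and 12 h. These 8 genes fell under both scalings. Zfp704, Zfp12 and Zfp518b were under 5 CPM in every LPS library and met the limit only through their M0 libraries. Zfp395, Zfp362 and Zfp524 were under 5 CPM in every M1-8 h library. The direction of the falls of these genes is therefore partly set by the choice of members.

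**Figure D2:**
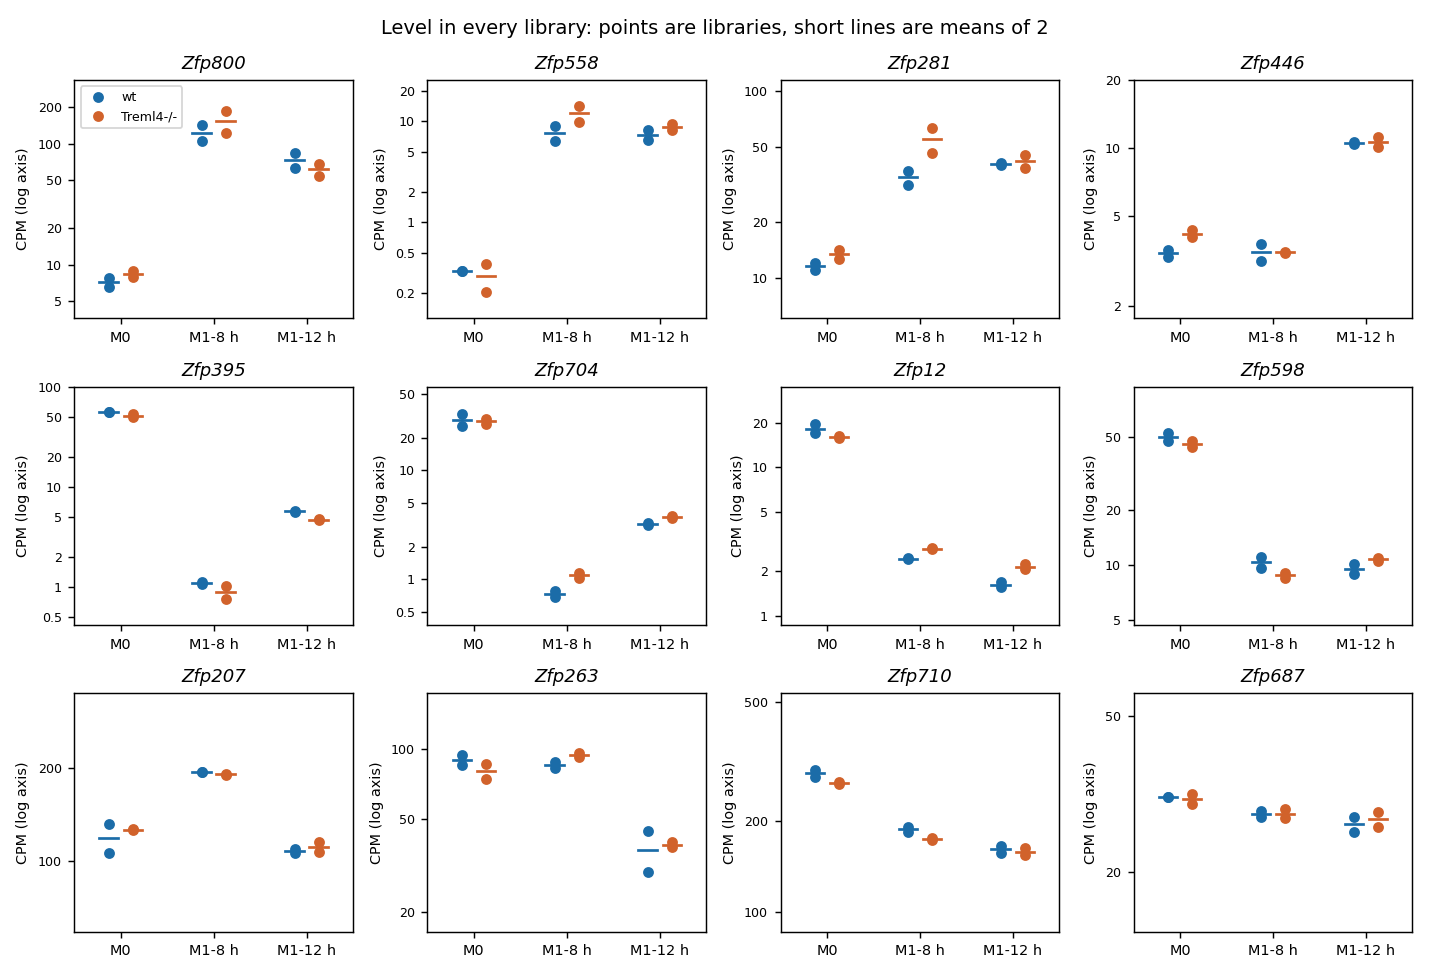
CPM of 12 members in each library (log axis), by time after LPS, with wt in blue and Treml4-/- in orange, points for libraries and short lines for the mean of 2. Zfp800, Zfp558 and Zfp281 are higher in every LPS library than in every M0 library, Zfp395, Zfp704, Zfp12 and Zfp598 are lower, and Zfp687 stays nearly level.

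After 12 h of LPS, 14 members were higher (11.1%) and 80 lower (63.5%) than at M0, against 16.3% and 60.3% of all tested genes and 16.8% and 59.4% of those with a mean of at least 5 CPM. The median change was -0.73 for the members and -0.76 for all tested genes. Median of ratios scaling gave 36 higher and 34 lower (32.7% and 32.6% of all tested genes). With both scalings 14 were higher and 34 lower, 46 were lower at library size alone, 22 higher at median of ratios alone, and 10 called under neither. All M1-12 h libraries lay above all M0 libraries in 16 members and below them in 93 (20.0% and 66.6% of all tested genes). This comparison uses the same M0 libraries as that at 8 h. The 8 largest rises at 12 h were in Zfp800, Zfp558, Zfp821, Zfp281, Zfp292, Zfp654, Zfp945 (1.29) and Zfp446 (1.28). Of these, Zfp558, Zfp654, Zfp945 and Zfp446 passed the limit of 5 CPM only through LPS libraries, which partly sets their direction. The 8 largest falls were in Zfp395, Zfp704, Zfp12, Zfp362, Zfp282 (-2.43), Zfp146 (-2.43), Zfp518b and Zfp598. Zfp704, Zfp12, Zfp146 and Zfp518b were under 5 CPM in every LPS library, and Zfp282 in every M1-12 h library. The direction of their falls is partly set by the choice of members. Zfp146, which is made almost wholly of fingers, was at 13.98 and 11.7 before LPS, 1.90 and 3.43 after 8 h and 1.27 and 1.49 after 12 h in wt, and 12.5 and 15.04 before LPS, 2.87 and 3.48 after 8 h and 2.08 and 1.84 after 12 h in Treml4-/- (CPM), lower in every LPS library than at M0.

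**Figure D3:**
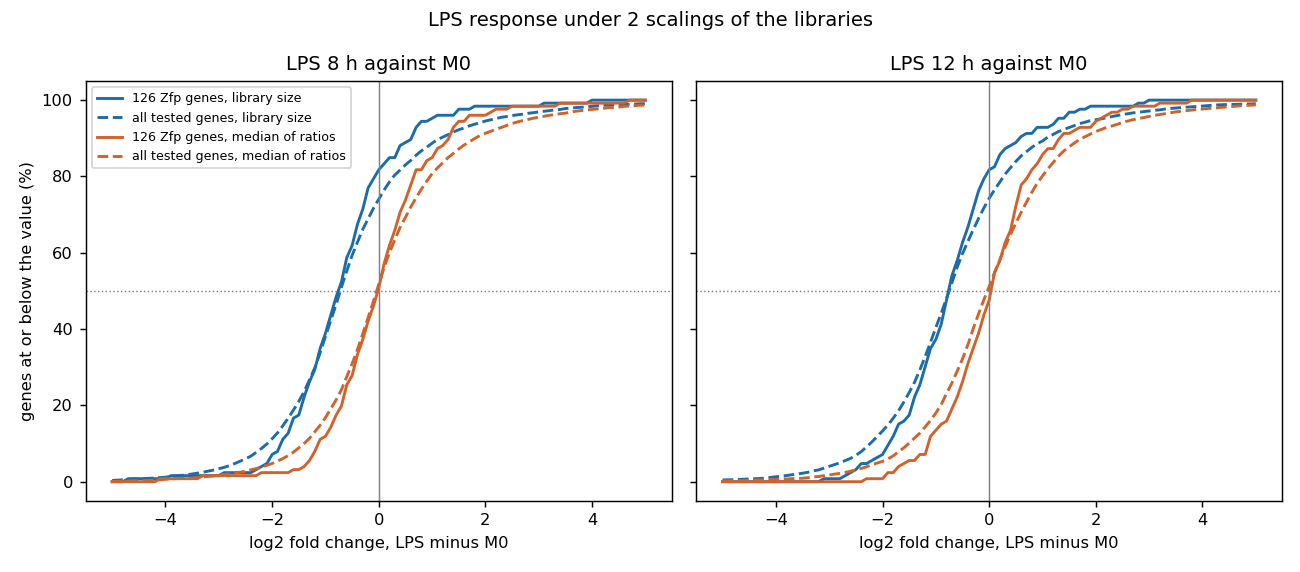
Share of genes (vertical axis, percent) at or under each log2 change (horizontal axis) at 8 h and 12 h of LPS against M0, for the 126 members and all tested genes, under library size and median of ratios scaling. The members' curves run close to those of all tested genes, and the second scaling moves both to the right, from medians of -0.75 and -0.72 to -0.01 and -0.04 at 8 h.

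Between 8 h and 12 h of LPS, 18 members rose (14.3%) and 16 fell (12.7%), against 13.5% and 18.7% of all tested genes. Median of ratios scaling gave 20 and 14 (15.5% and 17.1% of all tested genes), of which 18 and 14 were the same members. All M1-12 h libraries were above all M1-8 h libraries in 27 members and below them in 25 (21.7% and 29.6% of all tested genes). The largest rises were in Zfp395, Zfp446, Zfp704, Zfp52 and Zfp287. Zfp395 came back by 1.63 ± 0.08 (SE), adjusted p = 4.98e-08 and Zfp704 by 1.23 ± 0.09 (SE), adjusted p = 9.66e-07 (log2), both still under M0. Zfp446, a KRAB protein at chr7:12977848-12985714, was at 3.55 and 3.28 before LPS, 3.75 and 3.17 after 8 h and 10.4 and 10.7 after 12 h in wt, and 4.05 and 4.32 before LPS, 3.44 and 3.48 after 8 h and 10.1 and 11.2 after 12 h in Treml4-/- (CPM). At 8 h its change was -0.10 and not called at library size, but 0.51 and called higher under median of ratios. From 8 h to 12 h it rose by 1.38 ± 0.08 (SE), adjusted p = 1.67e-07. Zfp52 rose by 1.05 and Zfp287 by 0.95, and both ended above M0 at 12 h (by 0.64 and 0.54). Zfp446 and Zfp287 met the limit of 5 CPM only through their M1-12 h libraries. The direction of their rises is therefore tied to the choice of members.

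The largest falls from 8 h to 12 h were in Zfp263, Zfp874a, Zfp800, Zfp608 and Zfp949. Zfp263, a C2H2 factor with 9 fingers at chr16:3744093-3750790, was at 94.04 and 85.5 before LPS, 83.04 and 87.9 after 8 h and 29.5 and 44.3 after 12 h in wt, and 74.6 and 85.8 before LPS, 96.1 and 92.7 after 8 h and 39.8 and 37.9 after 12 h in Treml4-/- (CPM). It changed by 0.08 at 8 h (not called) and fell by 1.24 ± 0.11 (SE), adjusted p = 2.94e-06 from 8 h to 12 h (log2), with no overlap between the M1-8 h and M1-12 h libraries. Under median of ratios it was called higher at 8 h (0.87) and its fall from 8 h was 1.19. Zfp874a fell by 1.14, Zfp800 by 1.01, Zfp608 by 0.99 and Zfp949 by 0.93. Zfp874a met the limit of 5 CPM only through its M1-8 h libraries, which ties the direction of its fall to the choice. Zfp207 (BuGZ), which loads Bub3 on the mitotic spindle, was at 132 and 106 before LPS, 195 and 195 after 8 h and 106 and 109 after 12 h in wt, and 126 and 127 before LPS, 192 and 189.9 after 8 h and 116 and 107 after 12 h in Treml4-/- (CPM). It peaked at 8 h in both genotypes, with 0.65 ± 0.07 (SE), adjusted p = 2.56e-06 against M0 and a fall of 0.82 ± 0.07 (SE), adjusted p = 2.41e-06 from 8 h to 12 h. Among the flattest members, Zfp687 (range of the condition means 0.22 on the log2 scale), Zfp143 (0.26) and Zfp407 (0.36) were called in neither direction at library size and called higher at both times under median of ratios.

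The machinery through which KRAB proteins act was lower after LPS. Of 15 corepressor genes, 13 fell and 1 rose at 8 h, and 14 fell and 1 rose at 12 h, with medians of -1.39 and -1.57 against -0.72 and -0.76 for all tested genes. Median of ratios scaling left 8 lower and 1 higher at each time. Trim28, the protein that binds KRAB domains, was at 163 and 168 before LPS, 28.8 and 38.1 after 8 h and 36.002 and 44.1 after 12 h in wt, and 187 and 167 before LPS, 28.5 and 24.1 after 8 h and 36.6 and 38.4 after 12 h in Treml4-/- (CPM). All LPS libraries were below all M0 libraries, with a log2 change of -2.50 at 8 h and -2.12 at 12 h. Uhrf1 and Dnmt1, which copy DNA methylation, changed by -3.51 and -3.22 at 8 h and by -3.82 and -1.66 at 12 h. The heterochromatin protein genes Cbx3 and Cbx5 changed by -2.71 and -1.39 at 8 h and Setdb1 by -1.50. Hdac1 was the exception, at 75.5 and 64.05 before LPS and 341 and 322 after 8 h in wt, and 71.7 and 71.8 before LPS and 306 and 298 after 8 h in Treml4-/- (CPM), a rise of 2.15 at 8 h.

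The HUSH complex, a silencer that spreads histone H3 lysine methylation, was represented by 4 tested genes. Morc2a, Mphosph8 and Fam208a were lower at both times (Morc2a by 1.92 at 8 h and 2.36 at 12 h), with Fam208a not called under median of ratios (-0.04 at 8 h and 0.03 at 12 h). Pphln1 was higher at 8 h (1.77). At 12 h it stood at 0.40 and was not called at library size, but was called higher under median of ratios (1.22). Of 6 tested genes known for silencing retroelements or imprinted genes, 4 were lower at 8 h and 4 at 12 h, near the 59.8% and 60.3% of all tested genes, and under median of ratios only Zfp809 was called (-1.78 at 8 h at library size). The members among them were Zfp445, which protects imprints and changed by -0.92 and -0.72, and Zfp568, which represses a placental Igf2 promoter and changed by -0.29 (not called) and -0.73. Under median of ratios neither was called, Zfp568 was at 0.43 at 8 h, and the direction of both turned at 12 h (0.07 and 0.02). Gm15446, a zinc finger gene of this list, is no member, because of its symbol and because its level was low, under 5 CPM. It was called higher in wt than in Treml4-/- cells. The differences in limma's test were 1.36 at M0 (adjusted p = 0.000432), 0.98 at M1-12 h (adjusted p = 0.00723) and 0.99 over the 3 time points (adjusted p = 2.6e-05). At M1-8 h it was called under median of ratios alone (0.74). Its levels were 1.74 and 1.53 before LPS, 0.707 and 0.538 after 8 h and 0.882 and 1.35 after 12 h in wt, and 0.0204 and 0.0374 before LPS, 0 and 0.110 after 8 h and 0.0625 and 0.0694 after 12 h in Treml4-/- (CPM), and both wt libraries were above both Treml4-/- libraries at each time.

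Members that act on RNA, ribosomes and translation were mostly lower at library size, as were all tested genes. Of 11 tested genes in this list (10 of them members), 10 fell and 1 rose at 8 h, and 10 fell at 12 h, beside 59.8% and 60.3% of all tested genes that fell. Under median of ratios 5 were lower and 1 higher at each time, beside 31.4% and 32.6% lower. Zfp622 and Zfp593, which act in the maturation of the large ribosomal subunit, changed by -1.30 and -0.995 at 8 h and by -1.38 and -1.41 at 12 h, of which the change of Zfp593 at 8 h was not called under median of ratios. Zfp593 is also uncertain because of its overlap, and it met the limit of 5 CPM only through its M0 libraries. Zfp706 fell by 1.82 and 1.996. Zfp106, an RNA-binding protein, was at 306 and 219 before LPS, 86.3 and 90.6 after 8 h and 99.99 and 99.5 after 12 h in wt, and 241 and 269 before LPS, 104 and 107 after 8 h and 111 and 98.9 after 12 h in Treml4-/- (CPM), a change of -1.404 at 8 h and -1.32 at 12 h, which under median of ratios was called at 8 h and not at 12 h. Zfp207 was the gene that rose at 8 h.

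The list of 15 tested members that bind promoters or join chromatin complexes was mixed. At library size 2 rose and 6 fell at 8 h and 1 rose and 7 fell at 12 h, whereas median of ratios gave 6 higher and 0 lower at 8 h, and 5 higher and 2 lower at 12 h. Of all tested genes, 17.1% rose and 59.8% fell at 8 h and 16.3% and 60.3% at 12 h, and under median of ratios 31.1% were higher and 31.4% lower at 8 h and 32.7% and 32.6% at 12 h. Zfp281 and Zfp609 rose at 8 h. Zfp217, a corepressor that works with CoREST and CtBP, changed by -1.10 at 8 h and -1.49 at 12 h, and only its fall at 12 h was called under both scalings. Zfp592, a partner of the flat Zfp687, changed by -1.04 and -0.87 and was not called under median of ratios. In the ubiquitin and SUMO list of 5 members, 3 fell at 8 h and 2 at 12 h, close to or under the 59.8% and 60.3% of all tested genes, against 2 higher and 2 lower at 8 h and 3 higher and 2 lower at 12 h under median of ratios. Zfp91, an atypical ubiquitin ligase for NIK, was called at neither time at library size (-0.26 and -0.32) and called higher at both under median of ratios (0.53 and 0.52), while Zfp598 and Zfp622 fell under both scalings at both times. Zfp451, a ligase for SUMO2 and SUMO3 at chr1:33761545-33814595, was at 15.4 and 13.2 before LPS, 4.58 and 5.72 after 8 h and 13.3 and 12.1 after 12 h in wt, and 13.3 and 15.5 before LPS, 8.10 and 10.04 after 8 h and 15.5 and 13.7 after 12 h in Treml4-/- (CPM). It was lower at 8 h by 0.97 (not called under median of ratios) and rose by 0.90 ± 0.10 (SE), adjusted p = 2.44e-05 from 8 h to 12 h.

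Members with a match to the KRAB pattern, called KRAB members here, had a smaller median fall than those without a match. Of 34 members with a KRAB match, 4 rose and 19 fell at 8 h (median -0.53), and of 92 without, 11 rose and 61 fell (median -0.85). The share of all tested genes that rose was 17.1% and that fell 59.8%, with a median of -0.72. Under median of ratios the counts were 11 higher and 7 lower (median 0.17) and 22 higher and 29 lower (median -0.09). At 12 h, 6 KRAB members rose and 20 fell (median -0.65), as did 8 and 60 of the others (median -0.87), beside 16.3% and 60.3% of all tested genes (median -0.76). With the second scaling 9 KRAB members were higher and 8 lower at this time (median 0.12), and 27 and 26 of the others (median -0.08). The difference between these groups was not tested. Members with a transcript GC content up to 46.4% had a median change of -0.39 at 8 h, those between 46.4% and 53.7% -1.04, and those above -0.94, and all tested genes in the same ranges had -0.41, -0.81 and -1.02. Under median of ratios the members' medians were 0.34, -0.27 and -0.21, so the sign of the lowest class turned. Those of all tested genes were 0.30, -0.08 and -0.32. Across the 126 members the change at 8 h had a Pearson correlation of -0.32 with transcript GC content and 0.10 with the number of fingers, all from the same 12 libraries.

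Neighbouring members did not always move alike. On chromosome 7, Zfp324 and Zfp446 lie within 200 kb of each other and of Zfp110. Zfp324 and Zfp446 changed by 0.89 and 1.28 at 12 h, both called higher, whereas Zfp110 changed by -1.24 and was called lower at library size alone. Zfp260 and Zfp146, also on chromosome 7, changed by 0.61 and -1.88 at 8 h, a rise and a fall under both scalings. On chromosome 6, Zfp282 and Zfp746 fell by 1.70 and 1.69 at 8 h, while the nearby Zfp212 and Zfp777 changed by -0.06 and -0.22 and were not called at library size. Under median of ratios Zfp212 and Zfp777 were called higher at 8 h, and Zfp282 and Zfp746 still lower. On chromosome 13, Zfp429 and Zfp874a rose at 8 h and Zfp87 in the same window was at -0.34, and at 0.36 under median of ratios, called in neither.

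No member was called between wt and Treml4-/- cells at M0, M1-8 h, M1-12 h or over the 3 time points, in limma's test with 2 libraries per condition. Over all tested genes 0.0993%, 0.091%, 0.132% and 0.414% were called. At M0, unadjusted p-values were under 0.05 for 0 members (1.09% of all tested genes higher and 2.26% lower in wt). After 8 h this held for 2 members that were higher and 29 that were lower in wt (5.77% and 15.2% of all tested genes), and after 12 h for 0 higher and 6 lower (2.08% and 5.47%). Over the 3 time points there were 3 higher and 22 lower (4.76% and 15.4%). The lowest adjusted p-values of any member were 1.0, 0.104, 0.484 and 0.128 in that order, and voom on the recovered reads also called 0 members at each. The members' median differences, wt minus Treml4-/-, were close to 0 without LPS, -0.14 after 8 h and -0.07 after 12 h, with a median SE of 0.13. All tested genes had medians of -0.03, -0.07 and -0.05. With median of ratios scaling the members' medians were 0.04, -0.02 and 0.01, so that the sign at 12 h turned. The members with the lowest unadjusted p were Zfp446, Zfp839 and Zfp319 at M0, Zfp451, Zfp281 and Zfp287 at M1-8 h, and Zfp111, Zfp12 and Zfp512 at M1-12 h. Over the 3 time points they were Zfp451, Zfp281 and Zfp512.

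At M1-8 h, Zfp451 differed by -0.71 ± 0.15 (SE), adjusted p = 0.104 in limma's test. Its levels were 4.58 and 5.72 CPM in wt and 8.10 and 10.04 in Treml4-/- cells. Zfp281 differed by -0.65, with 31.5 and 37.4 CPM in wt and 46.7 and 63.6 in Treml4-/-. Zfp287 differed by -0.52, with 2.93 and 2.49 against 4.07 and 4.57 CPM. In each of these 3 genes both wt libraries were below both Treml4-/- libraries, and the second Treml4-/- library was the highest. Both wt libraries were below both Treml4-/- libraries in 52 members (41.3%, against 33.9% of all tested genes) and above them in 25 (19.8%, against 18.0%). Treml4-/- M1-8 h replicate 2 was the highest of the 4 M1-8 h libraries in 57 members and in 33.5% of all tested genes. Without Treml4-/- M1-8 h replicate 1, 18 members were called at M1-8 h, all lower in wt, and without Treml4-/- M1-8 h replicate 2 none was, with 7 under an unadjusted p of 0.05 and a median of -0.06.

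Base composition moved with these differences. At M1-8 h the wt minus Treml4-/- difference had a Pearson correlation of 0.82 with transcript GC content across the 126 members, which share the same 4 libraries, and all 42 members of the lowest GC class were below 0 (median -0.43) while 35 of 42 in the highest were above 0 (median 0.12). All tested genes in the same GC ranges ran the same way, with 2975 of 3244 below 0 (median -0.29) and 2350 of 3476 above 0 (median 0.08). The Spearman correlation was 0.84 across the members and 0.61 across 11001 tested genes. The members' Pearson correlation was 0.61 at M0 and 0.36 at M1-12 h. Differences between the replicates of a condition ran with GC content too. Across the members, replicate 2 minus replicate 1 had a Pearson correlation with GC content of 0.65 in wt M0 and -0.65 in Treml4-/- M0. It was -0.49 in wt M1-8 h, -0.70 in Treml4-/- M1-8 h, 0.23 in wt M1-12 h and 0.79 in Treml4-/- M1-12 h. The mean GC content of the transcripts, weighted by reads, ran from 49.8% in Treml4-/- M1-8 h replicate 2 to 51.9% in wt M0 replicate 2. The part of base composition in the genotype differences was not tested.

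**Figure D4:**
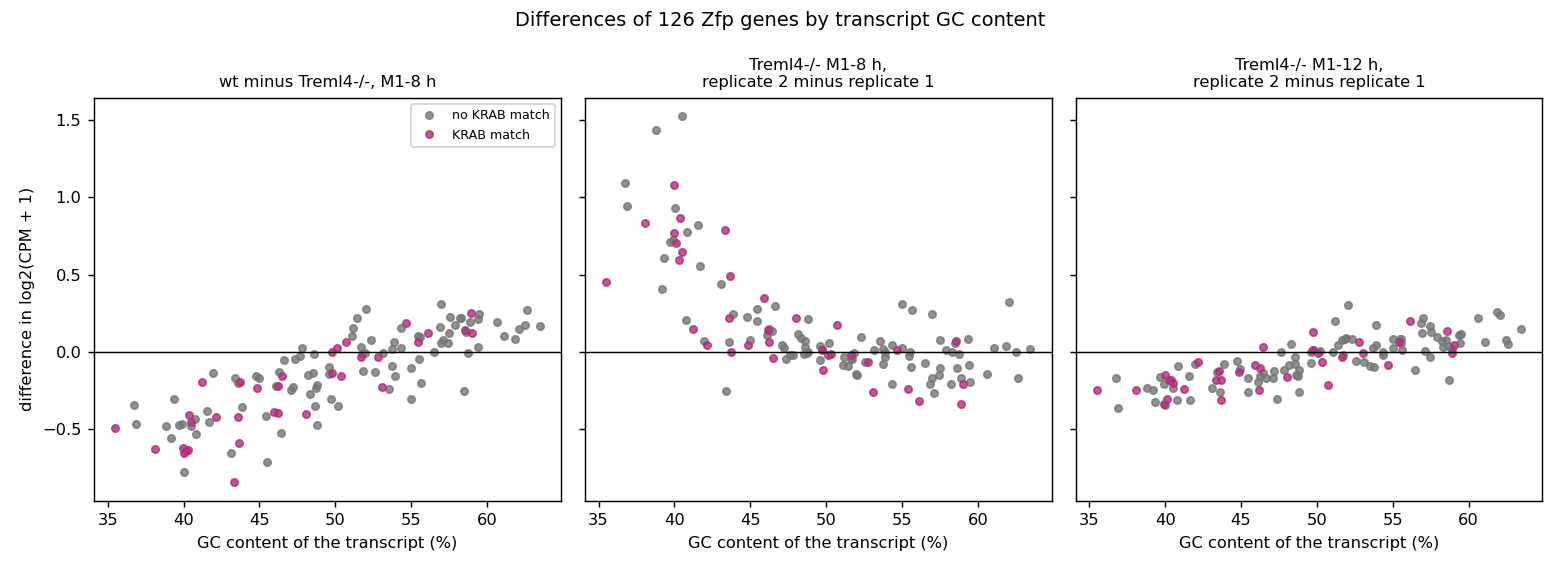
Log2 difference of each of the 126 members against the GC content of its transcript (percent), with members that have a KRAB match in purple. The panels show wt minus Treml4-/- at M1-8 h, and replicate 2 minus replicate 1 of Treml4-/- at M1-8 h and M1-12 h. Members of low GC content lie below 0 in the genotype difference (Pearson correlation 0.82), above 0 between the M1-8 h replicates (-0.70) and below 0 between the M1-12 h replicates (0.79).

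The response to LPS was also taken in each genotype alone. At 8 h, 11 members rose and 83 fell in wt, 16 rose and 75 fell in Treml4-/-, and 10 and 74 did so in both, with none called in opposite directions. In wt, 16.3% of all tested genes rose and 60.6% fell at this time, and in Treml4-/- 17.7% and 58.1%. At 12 h the counts were 12 and 82 in wt (16.2% and 60.4% of all tested genes), 13 and 78 in Treml4-/- (16.1% and 59.6%), and 11 and 78 in both. Over the members the absolute difference between the genotypes' responses had a median of 0.19 at 8 h and 0.11 at 12 h (log2). It was largest for Zfp445 at 8 h, which changed by -1.32 in wt and -0.52 in Treml4-/- cells, and for Zfp800 at 12 h (3.18 and 2.72). The test of the difference itself called no member at either time (lowest adjusted p = 0.729 and 0.999), while 9 members at 8 h and 1 at 12 h had an unadjusted p under 0.05, each with a lower response in wt. Of all tested genes, 2.39% were higher and 4.28% lower in wt by this measure at 8 h, and 1.44% and 2.38% at 12 h. Over all tested genes it called 0.00827% at each time. The members with the lowest unadjusted p were Zfp287, Zfp451 and Zfp236 at 8 h, with differences of -0.68, -0.70 and -0.39, and Zfp12, Zfp111 and Zfp839 at 12 h.

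**Figure D5:**
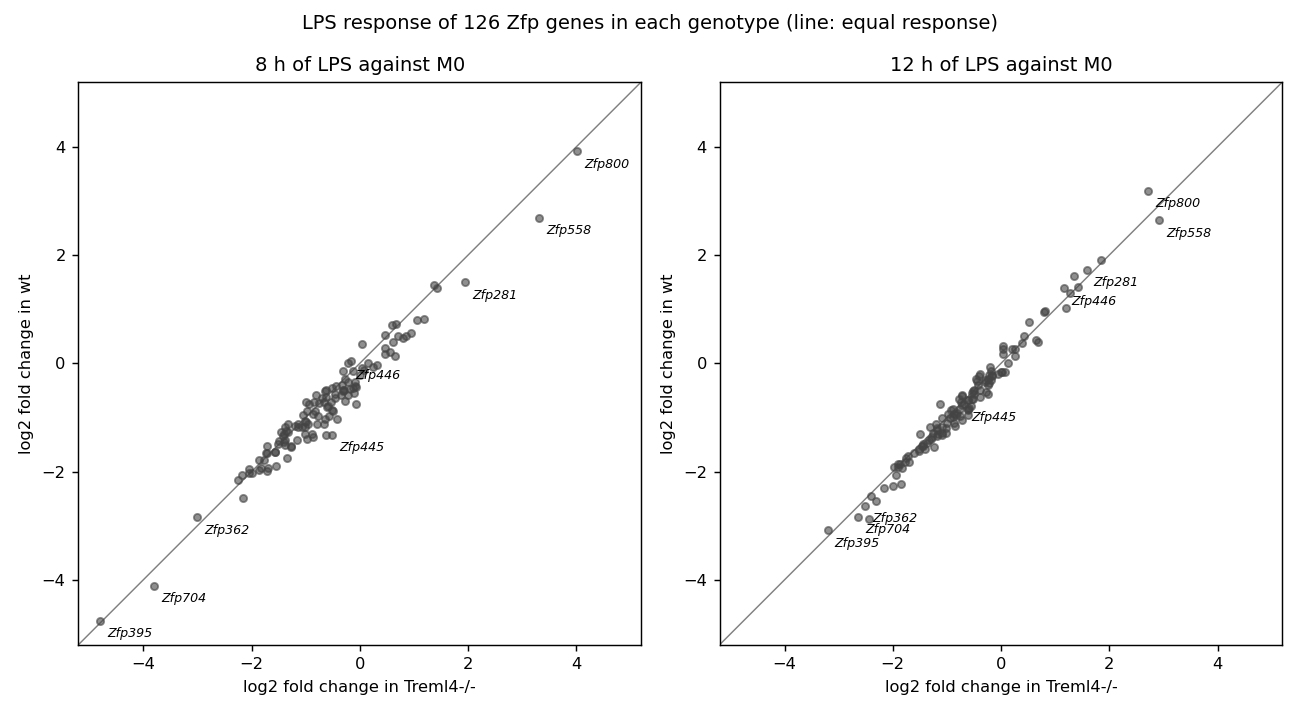
Log2 change with LPS against M0 in wt cells (vertical axis) and in Treml4-/- cells (horizontal axis) for the 126 members, at 8 h and 12 h. The points lie near the line of equal change, with Zfp445 at 8 h (-1.32 in wt and -0.52 in Treml4-/-) and Zfp800 at 12 h (3.18 and 2.72) the farthest from it.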

How the data were processed

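RNA-seq of 12 BMDM libraries (2 replicates of each genotype and time) was analysed. Per the labels and methods, the libraries were strand-specific and poly(A)-selected with paired reads of 126 bases, and the authors aligned them with STAR (genome mm10) in a core-facility workflow. Versions, and whether counting used strand, are not given in the sources used here. The authors deposited log2 CPM, that is reads normalized to library size on a log2 scale. Taking away a prior of 0.25 reads gave whole reads for 100.0% of the values (within 0.01 reads), 48008751 to 58500792 per library. The design had assumed plain CPM.

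The test was that of limma (version 3.58.1, R 4.3.3) on log2(CPM + 1), with a variance trend and 1 mean per condition over the 12 libraries. It covered 12086 genes, those reaching 1 CPM in 2 or more libraries. Calls needed a Benjamini-Hochberg adjusted p under 0.05 over all tested genes and a fold of 1.4, the thresholds of the study's methods. Changes on this scale understate those of weakly expressed genes. Contrasts are LPS minus M0, 12 h minus 8 h and wt minus Treml4-/-. In a simulation of LPS at 8 h with 11569 genes, 50 genes were changed at each fold. Called were 8 at 1.4-fold (the threshold itself), 50 at 2-fold, 49 at 4-fold and 48 at 8-fold, and 7 unchanged genes. The simulated counts were independent, with the same fixed dispersion for all genes. They held no shift of the median and no replicate differences running with GC content. The simulation therefore does not give the power or the false calls in the real libraries.

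The members and lists were chosen with earlier results of these data known. Named genes are, among called members whose libraries did not overlap, the 8 largest changes in each direction at 8 h and at 12 h, then the 5 largest between these times. They also include the 3 lowest p-values of each genotype contrast, the 6 highest and 3 lowest levels per kb, the 3 flattest, those beside the limit of 5 CPM, and examples from the lists. Others named for their neighbours or overlaps, or to complete a count, were chosen after their values were seen. Of 43280 symbols, 40321 were matched to GENCODE M21 (GRCm38), 942 through another symbol. Alternatives were another pseudocount, filter, scaling, trend, threshold and set of libraries, a replicate block and leaving out each library. Added after seeing the data was voom on the recovered reads. Python 3.11.15, numpy 2.4.6, pandas 2.3.3 and matplotlib 3.10.9 were used.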

Additional observations from a re-analysis of the deposited data

How the results depend on the processing

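Called members in LPS against M0 numbered 15 higher and 80 lower at 8 h and 14 and 80 at 12 h, and quantile normalization turned this into 41 and 36, and 43 and 33. Without a minimum fold, 65 members were called between 12 h and 8 h in place of 34. Leaving out each library gave 0 to 18 called members for wt against Treml4-/- at M1-8 h and 0 to 3 over the 3 time points, both highest without Treml4-/- M1-8 h replicate 1, whose lone partner was assumed to vary like the other groups. Of the 80 members called lower at library size, 16 at 8 h and 20 at 12 h had a change above 0 under median of ratios. Among genes named by the rule, the change at 12 h turned to 0.0845 in Zfp236, 0.0120 in Zfp386, 0.0686 in Zfp445, 0.0232 in Zfp568 and 0.0461 in Zfp710, and at 8 h to 0.18 in Zfp710. Under quantile normalization it turned at 12 h to 0.33 in Zfp386, 0.24 in Zfp445, 0.10 in Zfp518a, 0.32 in Zfp568 and 0.22 in Zfp839, and at 8 h to 0.28 in Zfp386 and 0.0706 in Zfp608. The cause was not tested. The labels state no pairing, and deviations of same-numbered replicates correlated at -0.27 to 0.46 across genes. With the replicate block, called members stayed at 15 and 80, 14 and 80, and 18 and 16 in the LPS comparisons and at 0 between genotypes, as with culture as the block in the LPS comparisons. voom, chosen after seeing the data, gave 15 and 82, 15 and 80, and 19 and 19. edgeR and DESeq2 were not run, although whole reads were recovered, so the study's own test, DESeq2, was not repeated. At this depth 1 read was worth 0.0171 to 0.0208 CPM, small beside the members' means of at least 5 CPM.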
